A study of Bos taurus with 8 samples.

Results

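The genes described here are the liver X receptors, genes that answer to them, and genes of sterol exit, transport or storage. The set holds 10 genes, chosen by symbol from the 28709 listed: ABCA1, ABCG1, MYLIP, LPCAT3, NR1H2, NR1H3, NPC1, NPC2, APOE and SOAT1. Each symbol matched a single entry, and 9 of the 10 were expressed highly enough to be tested. Poly(A) RNA had been sequenced from BUTE cells, an immortalized wild-type uterine epithelial line made from a Holstein dairy cow. The progesterone group (4 libraries) received 10 µM progesterone for 24 h and the DMSO group (4 libraries) received the vehicle. All cells of both groups had first spent 24 h in medium without serum, steroids or phenol red, with insulin-like growth factor 1, which stayed in the medium at 50 ng/ml during treatment. The maintenance medium before that contained serum, epidermal growth factor and estradiol-17β. Both groups come from a single cell line of 1 animal, and nothing in the labels tells separate cultures from repeat libraries of 1 culture, so p-values measure only the spread between these libraries.

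Liver X receptors are nuclear receptors that bind oxysterols, which are oxidized forms of cholesterol, and pair with a retinoid X receptor on DNA. When sterol is plentiful they raise the genes that move cholesterol out of the cell, limit its uptake and remodel membrane phospholipids. In the ruminant endometrium the lipid content of the epithelium is known to change over the oestrous cycle, and progesterone is the main hormone of its later phase.

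Libraries held between 23810861 and 32509786 estimated counts, with totals that overlapped between the groups, and are named by the numbers in the deposited column names (progesterone R1, R2, R3 and R6, DMSO R1, R3, R7 and R9). DMSO R7 and R9 stood apart. Across tested genes their log2 expression correlated at 0.992 with each other and at 0.949 to 0.962 with the other 6, which correlated at 0.983 to 0.992 among themselves. The results for the members are therefore given with and without them, as are most of those of the gene lists. Of 13 epithelial markers KRT8 was between 1348 and 2107 CPM in progesterone and between 2286 and 2789 CPM in DMSO. CPM are estimated counts scaled to a common library size with TMM factors. KRT19 was at 361 to 585 CPM in progesterone and 255 to 706 CPM in DMSO. TJP1 was at 248 to 344 CPM in progesterone and 243 to 327 CPM in DMSO. CDH1, OCLN and KRT7 lay between 5.70 and 35.3 CPM over all libraries. KRT18 was at most 6.92 CPM, and ESRP1 and ELF3 at most 3.18 CPM. EPCAM lay under 3 CPM in every library and CLDN3, CLDN4 and GRHL2 under 1 CPM. The stromal marker VIM was at 6562 to 7467 CPM in progesterone and 5814 to 6816 CPM in DMSO, so the libraries carry epithelial and mesenchymal markers together. Of 10 markers of leukocytes and macrophages, 7 lay under 1 CPM in every library, among them PTPRC and MARCO with no count. CD14 was detected in every library, at 7.89 to 11.9 CPM in progesterone and 3.14 to 11.3 CPM in DMSO. CD68 was at 0.991 to 1.99 CPM in progesterone and 1.81 to 2.68 CPM in DMSO, and CD163 reached 1.06 CPM in DMSO R9. Summed epithelial markers ran from 2009 to 2932 CPM in progesterone and from 3155 to 3395 CPM in DMSO, and summed stromal markers from 12102 to 13294 CPM in progesterone and from 13303 to 20583 CPM in DMSO. The epithelial sum was mostly KRT8. The stromal sum of DMSO was raised mainly by COL1A1 and COL1A2 in R7 and R9. COL1A1 was at 6553 and 5295 CPM in R7 and R9 and between 1516 and 2046 CPM in the other 6 libraries. COL1A2 was at 6376 and 6652 CPM in R7 and R9 and between 2970 and 4097 CPM in the other 6. DCN went the other way, at 268 and 281 CPM in R7 and R9 and between 522 and 962 CPM in the other 6. No single marker passed the test. Their part in the results below was not tested.

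ABCA1, MYLIP and LPCAT3 rose with progesterone, no member fell, and 6 of the 9 tested members did not pass. Among all 13557 genes tested, 2.65% passed in either direction and 1.69% passed as higher (edgeR quasi-likelihood test, Benjamini-Hochberg adjusted p under 0.05 over all genes). Without DMSO R7 and R9, 3 of the 9 again rose, the same genes, against 1.18% of 13764 genes in either direction and 0.995% higher. The groups did not overlap at 4 members, all higher with progesterone, against 7.95% of genes that were higher without overlap. The median log2 fold change of the 9 tested members was 0.20, beside -0.01 for all genes, and 0.43 beside 0.01 without R7 and R9. At an unadjusted p under 0.05, which is quoted below for lists in which 0 genes passed, lay 26.8% of all genes with 8 libraries and 15.9% without R7 and R9. In bulk RNA, a change in the share of cells that express a gene and a change in RNA per cell cannot be told apart.

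**Figure D1:**
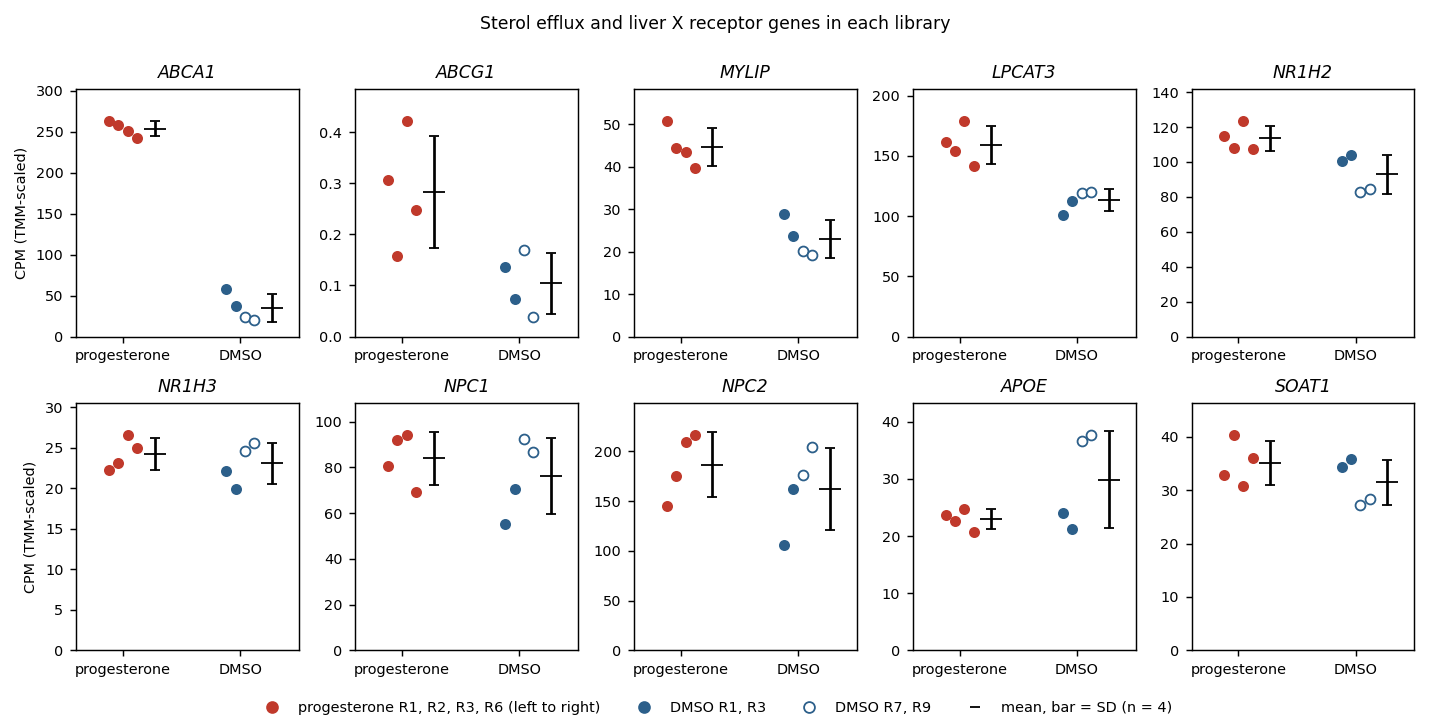
Expression of the 10 members in each library, as CPM on a linear axis that starts at 0. Points are libraries (red, progesterone; filled blue, DMSO R1 and R3; open blue, DMSO R7 and R9), and the black bar is the mean with its SD (n = 4). ABCA1 lies between 242 and 263 CPM with progesterone and between 19.7 and 58.0 CPM with DMSO.

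ABCA1 (Entrez Gene 535379, chromosome 8) encodes the transporter that passes cholesterol and phospholipid from the cell membrane to lipid-poor apolipoprotein A-I. It was at 263, 259, 252 and 242 CPM in progesterone R1, R2, R3 and R6, and at 58.0, 37.2, 23.8 and 19.7 CPM in DMSO R1, R3, R7 and R9. The groups stood far apart, with progesterone libraries close to each other and DMSO libraries spread out. The lowest progesterone library was 4.18-fold above the highest DMSO library. No gap in this direction was as wide among the 11695 other named genes tested at a mean of at least 1 CPM. Gaps of genes lower with progesterone were not compared. The mean was 254 ± 9.02 CPM with progesterone and 34.7 ± 17.2 CPM with DMSO (SD, n = 4 each), a log2 fold change of 2.87 ± 0.31 (SE, 95% interval 2.17 to 3.58, edgeR adjusted p = 0.00784). By log2 fold change it ranked 6 of 13557, and by p 12.

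Within the DMSO group ABCA1 averaged 47.6 CPM in R1 and R3 and 21.7 CPM in R7 and R9, a ratio of 2.19. R1 and R3 themselves differed 1.56-fold. Leaving out R7 and R9, ABCA1 had a log2 fold change of 2.43 ± 0.16 (SE, 95% interval 2.06 to 2.79, edgeR adjusted p = 0.000448), or 5.38-fold. Its coefficient of variation was 3.55% in progesterone and 49.7% in DMSO. A smaller coefficient in progesterone was seen in 8 of the 9 tested members and in 66.7% of all tested genes, and the DMSO group holds the libraries that stand apart.

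ABCG1 (510745, chromosome 1), the transporter that loads cholesterol onto lipoprotein particles already carrying lipid, was barely detected and was not tested. It had 10, 4, 12 and 6 counts in progesterone R1, R2, R3 and R6, and 4, 2, 5 and 1 counts in DMSO R1, R3, R7 and R9. The summed level was 0.289 CPM with progesterone (exact Poisson 95% interval 0.198 to 0.408) and 0.107 CPM with DMSO (0.0551 to 0.186), intervals that cover counting error only. The libraries overlapped between the groups. Fitted without a filter among 19943 genes, its log2 fold change was 1.42 ± 0.63 (SE), which did not pass (edgeR adjusted p = 0.222).

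MYLIP (541070, chromosome 23) encodes IDOL, a ubiquitin ligase that sends lipoprotein receptors to the lysosome. It was at 50.7, 44.4, 43.5 and 39.8 CPM in progesterone R1, R2, R3 and R6, and at 28.8, 23.8, 20.2 and 19.1 CPM in DMSO R1, R3, R7 and R9. No library of a group reached the other group's range. MYLIP averaged 44.6 ± 4.52 CPM with progesterone and 23.0 ± 4.39 CPM with DMSO (SD, n = 4 each), a log2 fold change of 0.96 ± 0.14 (SE, edgeR adjusted p = 0.0138), and 0.78 ± 0.12 without R7 and R9 (adjusted p = 0.0163). Without progesterone R1 it did not pass (log2 fold change 0.89, edgeR adjusted p = 0.0525).

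VLDLR and LRP8, receptors on which MYLIP acts, did not pass. VLDLR, which takes up lipoproteins rich in triglyceride, was at 48.5, 50.7, 66.4 and 55.5 CPM in progesterone R1, R2, R3 and R6, and at 42.1, 47.8, 35.9 and 34.0 CPM in DMSO R1, R3, R7 and R9. These did not overlap, with a log2 fold change of 0.47 ± 0.14 (SE, edgeR adjusted p = 0.0788), and 0.31 without R7 and R9. LRP8, a receptor that also binds reelin, had a log2 fold change of 0.18 (95% interval -0.01 to 0.36), and 0.10 without R7 and R9. Of 8 tested genes listed as MYLIP substrates and partners, 0 passed in edgeR, with a median log2 fold change of 0.08. An unadjusted p under 0.05 was seen for 2 of the 8 (against 26.8% of all genes). Leaving R7 and R9 out, 0 passed, 3 were at an unadjusted p under 0.05 (against 15.9% of all genes) and the median was 0.16. These are RNA levels; MYLIP acts on the receptor proteins, which were not measured.

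LPCAT3 (515361, chromosome 5) encodes an acyltransferase of the endoplasmic reticulum that places polyunsaturated fatty acids into phospholipids. It was at 162, 154, 179 and 141 CPM in progesterone R1, R2, R3 and R6, and at 100.5, 113, 119 and 120 CPM in DMSO R1, R3, R7 and R9. All progesterone libraries lay above all DMSO libraries, with progesterone R6 nearest, at 1.18-fold above the highest. LPCAT3 averaged 159 ± 15.6 CPM with progesterone and 113 ± 8.98 CPM with DMSO (SD, n = 4 each), a log2 fold change of 0.49 ± 0.10 (SE, edgeR adjusted p = 0.0327), and 0.59 ± 0.11 without R7 and R9 (adjusted p = 0.0309). The call of LPCAT3 did not hold in 6 of 8 fits that left out a single library (DMSO R7 or R9, or any progesterone library), with log2 fold changes of 0.43 to 0.55 and edgeR adjusted p of 0.0596 to 0.0883. Of 12 other acyltransferases of this kind, 0 passed in edgeR, 4 had an unadjusted p under 0.05 (against 26.8% of all genes), and their median log2 fold change was -0.09. Leaving R7 and R9 out, these were 0 passing, 4 at an unadjusted p under 0.05 and a median of 0.03.

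**Figure D2:**
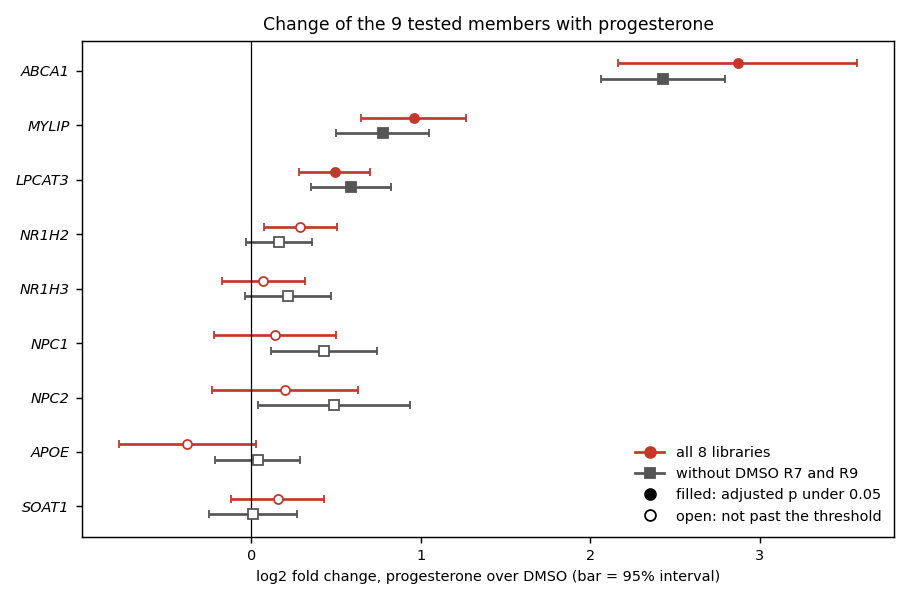
Log2 fold change of progesterone over DMSO for the 9 tested members, with 95% intervals (edgeR), from all 8 libraries (red circles) and without DMSO R7 and R9 (grey squares). Filled symbols, those of ABCA1, MYLIP and LPCAT3, have an adjusted p under 0.05, and the intervals of the 6 others lie between -0.78 and 0.94.

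The receptors themselves did not pass. NR1H2 (509622, chromosome 18), liver X receptor beta, was at 115, 108, 123 and 108 CPM in progesterone R1, R2, R3 and R6, and at 101, 104, 82.6 and 84.3 CPM in DMSO R1, R3, R7 and R9. The groups did not overlap, but DMSO R3 lay within 1.04-fold of the lowest progesterone library. Its log2 fold change was 0.29 ± 0.10 (SE, 95% interval 0.07 to 0.51, edgeR adjusted p = 0.107), and 0.16 without R7 and R9 (adjusted p = 0.402). NR1H3 (507176, chromosome 15), liver X receptor alpha, averaged 24.2 ± 1.94 CPM with progesterone and 23.1 ± 2.58 CPM with DMSO (SD, n = 4 each), with overlapping libraries and a log2 fold change of 0.07 (95% interval -0.18 to 0.31), and 0.22 (-0.04 to 0.47) without R7 and R9.

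Of 16 listed partners and cofactors of the receptors, 15 were tested and 0 passed in edgeR, with 3 at an unadjusted p under 0.05 (against 26.8% of all genes) and a median log2 fold change of -0.03. With R7 and R9 left out, 0 passed, 4 were at an unadjusted p under 0.05 and the median was 0.12. RXRA, a retinoid X receptor, was at 110.1, 96.0, 93.4 and 106 CPM in progesterone R1, R2, R3 and R6, and at 99.5, 80.1, 68.5 and 58.8 CPM in DMSO R1, R3, R7 and R9. The groups overlapped through DMSO R1, and the log2 fold change was 0.40 ± 0.15 (SE, edgeR adjusted p = 0.123), and 0.19 without R7 and R9. RXRB had a log2 fold change of 0.18 ± 0.11 (adjusted p = 0.290), and 0.37 without R7 and R9 (adjusted p = 0.0656, edgeR). RXRG was below the filter.

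NPC1 and NPC2 hand cholesterol out of the lysosome, NPC2 in the lumen and NPC1 in the membrane. NPC1 (286772, chromosome 24) was at 80.5, 92.2, 94.1 and 69.3 CPM in progesterone R1, R2, R3 and R6, and at 55.2, 70.7, 92.5 and 86.7 CPM in DMSO R1, R3, R7 and R9. DMSO R7 and R9 lay within the progesterone range and DMSO R1 was the lowest of all. The log2 fold change of NPC1 was 0.14 (95% interval -0.22 to 0.50, edgeR adjusted p = 0.599) with all libraries and 0.43 (0.12 to 0.74, adjusted p = 0.174) without R7 and R9, that is 1.10-fold and 1.35-fold.

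NPC2 (280815, chromosome 10) was at 145, 175, 209 and 216 CPM in progesterone R1, R2, R3 and R6, and at 106, 162, 177 and 204 CPM in DMSO R1, R3, R7 and R9. The ranges overlapped over most of their width. Its log2 fold change was 0.20 (95% interval -0.23 to 0.63, edgeR adjusted p = 0.525), and 0.49 (0.04 to 0.94, adjusted p = 0.278) without R7 and R9. Neither gene passed in either comparison.

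APOE (281004, chromosome 18), the secreted carrier that accepts cellular lipid, was at 23.7, 22.6, 24.8 and 20.8 CPM in progesterone R1, R2, R3 and R6, and at 24.0, 21.3, 36.6 and 37.7 CPM in DMSO R1, R3, R7 and R9. R7 and R9 were high, and the other 6 libraries lay between 20.8 and 24.8 CPM. With all libraries the log2 fold change of APOE was -0.38 (95% interval -0.78 to 0.03, edgeR adjusted p = 0.211), and without R7 and R9 it was 0.04 (-0.21 to 0.29). Its DMSO mean was 22.6 CPM in R1 and R3 and 37.1 CPM in R7 and R9, a ratio of 0.610.

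SOAT1 (504287, chromosome 16), which esterifies cholesterol for storage in lipid droplets, averaged 35.0 ± 4.11 CPM with progesterone and 31.5 ± 4.28 CPM with DMSO (SD, n = 4 each), with overlapping libraries. R7 and R9 were the lowest at 27.3 and 28.3 CPM. The log2 fold change of SOAT1 was 0.15 (95% interval -0.12 to 0.43), and 0.01 (-0.25 to 0.27) without R7 and R9. Of 7 other genes of ester formation and hydrolysis, 0 passed in edgeR, 3 had an unadjusted p under 0.05 (against 26.8% of all genes), with a median log2 fold change of 0.06. When R7 and R9 were left out, 0 passed, 2 had an unadjusted p under 0.05 and the median was -0.03.

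Other genes reported as targets or regulators of liver X receptors were read beside the members. Of 20 listed, 18 were matched and 13 tested. Of these 6 rose, 0 fell and 7 did not pass, against 1.69% of all genes that rose. The median log2 fold change of the list was 0.50, and 0.56 without R7 and R9. This list includes genes of fatty acid synthesis that other factors also drive. SLC2A4, the glucose transporter GLUT4, which is reported as a receptor target in mouse fat cells, was at 16.1, 17.3, 16.2 and 15.6 CPM in progesterone R1, R2, R3 and R6, and at 8.33, 6.87, 5.02 and 5.64 CPM in DMSO R1, R3, R7 and R9. The progesterone libraries were close together and clear of the DMSO libraries, with a log2 fold change of 1.33 ± 0.16 (SE, edgeR adjusted p = 0.00784).

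The regulator of fatty acid synthesis SREBF1 was at 551, 475, 580.0 and 432 CPM in progesterone R1, R2, R3 and R6, and at 299.6, 325, 274 and 249.7 CPM in DMSO R1, R3, R7 and R9. FASN, the fatty acid synthase, was at 3175, 2979, 3222 and 2045 CPM in progesterone R1, R2, R3 and R6, and at 1089, 1239, 1487 and 1424 CPM in DMSO R1, R3, R7 and R9. Progesterone R6 was the lowest of its group for both, and still above every DMSO library. TMEM135, a peroxisomal and mitochondrial membrane protein, had a log2 fold change of 0.66 ± 0.10 (SE, edgeR adjusted p = 0.0151). The remaining 2 that passed were named after their values were seen: MLXIPL, the glucose-sensing factor ChREBP, at 2.36 CPM with progesterone and 0.673 CPM with DMSO (log2 fold change 1.80, adjusted p = 0.0199), and SCD, the stearoyl-CoA desaturase (0.50, adjusted p = 0.0320, edgeR). All 6 also passed without R7 and R9, where 0.995% of all genes rose. Their log2 fold changes were then 0.56 for SCD, 0.67 for TMEM135, 0.72 for SREBF1, 1.11 for SLC2A4, 1.31 for FASN and 1.46 for MLXIPL.

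**Figure D3:**
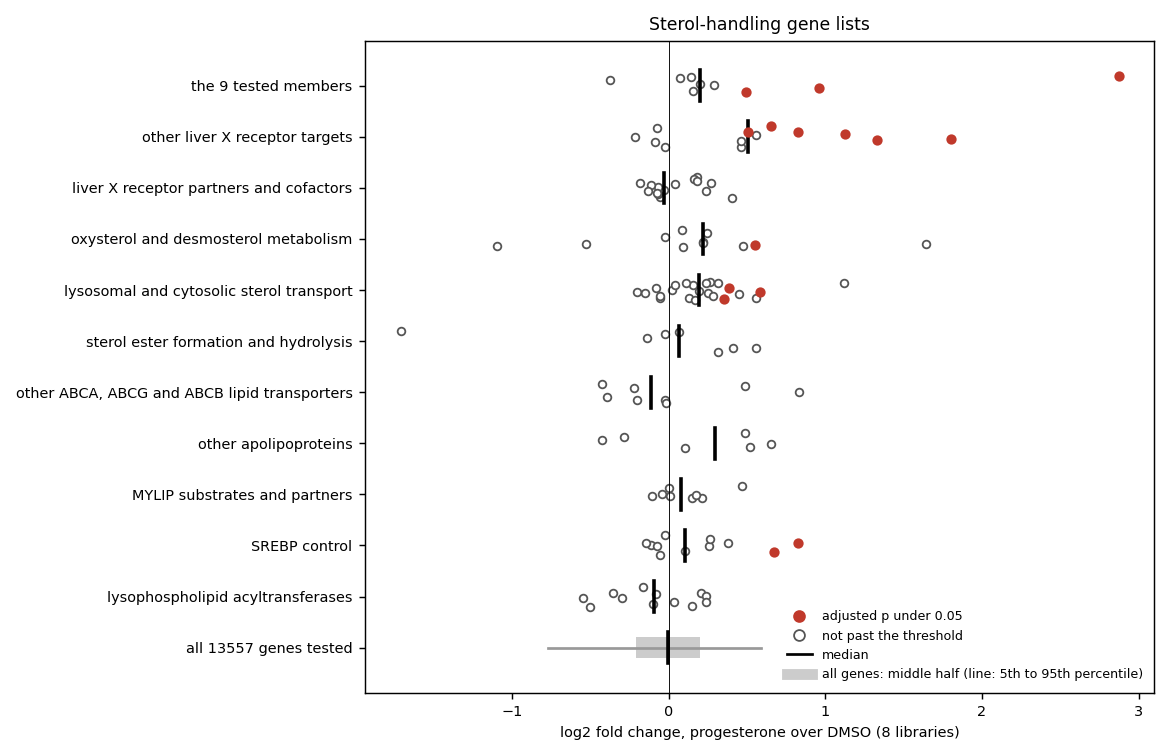
Log2 fold change of progesterone over DMSO for the tested members and for the genes of 10 lists of sterol handling (each point a gene, red with an edgeR adjusted p under 0.05). Black ticks are medians. The list of other liver X receptor targets has the highest median, 0.50, and the grey bar gives all genes, with a median of -0.01.

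Counting each gene once, the 10 lists beside the members held 111 tested genes, of which 11 rose and 0 fell, and their median log2 fold change was 0.11. Over all genes 1.69% rose. Without R7 and R9, 8 of the 111 rose and 0 fell, against 0.995% of all genes that rose. Of 11 tested genes that make or remove oxysterols or late sterol precursors, which can be receptor ligands, 1 rose. It was MSMO1, an oxidase that removes methyl groups during cholesterol synthesis, at 206, 247, 205 and 212 CPM in progesterone R1, R2, R3 and R6, and at 140.0, 148, 147 and 160 CPM in DMSO R1, R3, R7 and R9, with no overlap (log2 fold change 0.55, edgeR adjusted p = 0.0199). Without R7 and R9 it was again the 1 that rose, with a log2 fold change of 0.61 (edgeR adjusted p = 0.0223), and the median of the list was 0.13, beside 0.22 with all libraries. Among the 10 that did not pass, 2 enzymes of oxysterols were picked after their values were seen. CH25H, which makes 25-hydroxycholesterol, averaged 1.60 CPM with progesterone and 0.506 CPM with DMSO. Its progesterone values were 1.04, 1.35, 0.983 and 3.02 CPM in R1, R2, R3 and R6, so R6 raised that mean. The log2 fold change of CH25H was 1.64 ± 0.42 (SE, edgeR adjusted p = 0.0656), and 1.96 without R7 and R9 (adjusted p = 0.125). CYP7B1, which breaks oxysterols down, averaged 4.42 CPM with progesterone and 9.47 CPM with DMSO. Its log2 fold change was -1.10 ± 0.27 (SE, edgeR adjusted p = 0.0598), and -0.52 without R7 and R9 (adjusted p = 0.244). HSD3B7, SULT2B1 and CYP39A1, also measured, had log2 fold changes of -0.03, 0.09 and -0.53 and did not pass.

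Of 23 tested genes of lysosomal and cytosolic sterol transport, 3 rose, 0 fell and 20 did not pass. Over all genes 1.69% rose. The median log2 fold change of the list was 0.20, whether R7 and R9 were kept or left out. TMEM97, a membrane protein that binds NPC1, was at 171, 159, 152 and 138 CPM in progesterone R1, R2, R3 and R6, and at 119, 110.0, 92.1 and 92.6 CPM in DMSO R1, R3, R7 and R9. GRAMD1A, which carries cholesterol from the plasma membrane to the endoplasmic reticulum, averaged 44.0 CPM with progesterone and 33.6 CPM with DMSO, and SCARB1, the HDL receptor, 176 CPM with progesterone and 138 CPM with DMSO. Their log2 fold changes were 0.58, 0.39 and 0.35 in this order, with edgeR adjusted p of 0.0299, 0.0370 and 0.0459. Without R7 and R9 none of the 23 passed, 10 were at an unadjusted p under 0.05 (against 15.9% of all genes), and these 3 had log2 fold changes of 0.45, 0.40 and 0.30 and edgeR adjusted p of 0.0646, 0.0673 and 0.123.

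Of 11 genes of SREBP control, which senses sterol in the endoplasmic reticulum, 2 rose and 9 did not pass. INSIG1, which retains the sensor when sterol is high, averaged 239 CPM with progesterone and 149.8 CPM with DMSO (log2 fold change 0.67, edgeR adjusted p = 0.0368), and SREBF1 was the other. Leaving out R7 and R9, INSIG1 did not pass, at a log2 fold change of 0.80 (edgeR adjusted p = 0.0505). In that fit 2 genes of the list rose, SREBF1 among them, against 0.995% of all genes.

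Other transporters and apolipoproteins did not pass. Of 16 lipid transporters of the ABCA, ABCB and ABCG families besides ABCA1 and ABCG1, 8 were tested and 0 passed in edgeR, with 3 at an unadjusted p under 0.05 (against 26.8% of all genes) and a median log2 fold change of -0.11. Those 3, named after their values were seen, were ABCA7 with a log2 fold change of 0.84, ABCA2 with 0.49 and ABCA5 with -0.22. Leaving out R7 and R9 gave 0.33, 0.13 and -0.19 for these, with 1 of the 8 at an unadjusted p under 0.05 and a list median of -0.07. Of 6 tested genes of the apolipoprotein list 0 passed in edgeR, with a median log2 fold change of 0.29. An unadjusted p under 0.05 was seen for 3 of them (against 26.8% of all genes). Those 3, named after their values were seen, were APOO with a log2 fold change of 0.49, APOOL with 0.52 and CLU with -0.43. After R7 and R9 were left out, these were 0.56, 0.32 and -0.10. Then 0 of the list passed, 1 was at an unadjusted p under 0.05 (against 15.9% of all genes) and the median was -0.07. APOA1, the acceptor of lipid from ABCA1, was named for that role after its values were seen, and averaged 310.2 CPM with progesterone and 379 CPM with DMSO (log2 fold change -0.29, edgeR adjusted p = 0.333, and -0.26 without R7 and R9). APOO and APOOL, in this list by name, are subunits of a mitochondrial membrane complex.

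Some genes outside the set followed the same pattern over the 8 libraries. Likeness was the Pearson correlation of log2 CPM with ABCA1 over 11695 genes, and the 5 highest were SLC2A4 (0.994), the tumour suppressor MTUS1 (0.992), QPRT, an enzyme of NAD synthesis (0.991), the sialyltransferase ST3GAL4 (0.991) and GEM, a small GTPase (0.990). For MYLIP they were TMEM97 (0.992), the sulfite oxidase SUOX (0.990), the microtubule-binding MAPRE3 (0.988), the protease UFSP1 (0.988) and ABCA1 (0.987). These coefficients rest on 8 libraries in 2 groups that do not overlap, with R7 and R9 apart within DMSO, so they mainly restate those differences and are given with no test. ABCA1 and MYLIP put the 8 libraries in the same order, from progesterone R1 highest to DMSO R9 lowest. Of the 11695 genes compared with ABCA1, 5 gave that order, MYLIP among them.

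**Figure D4:**
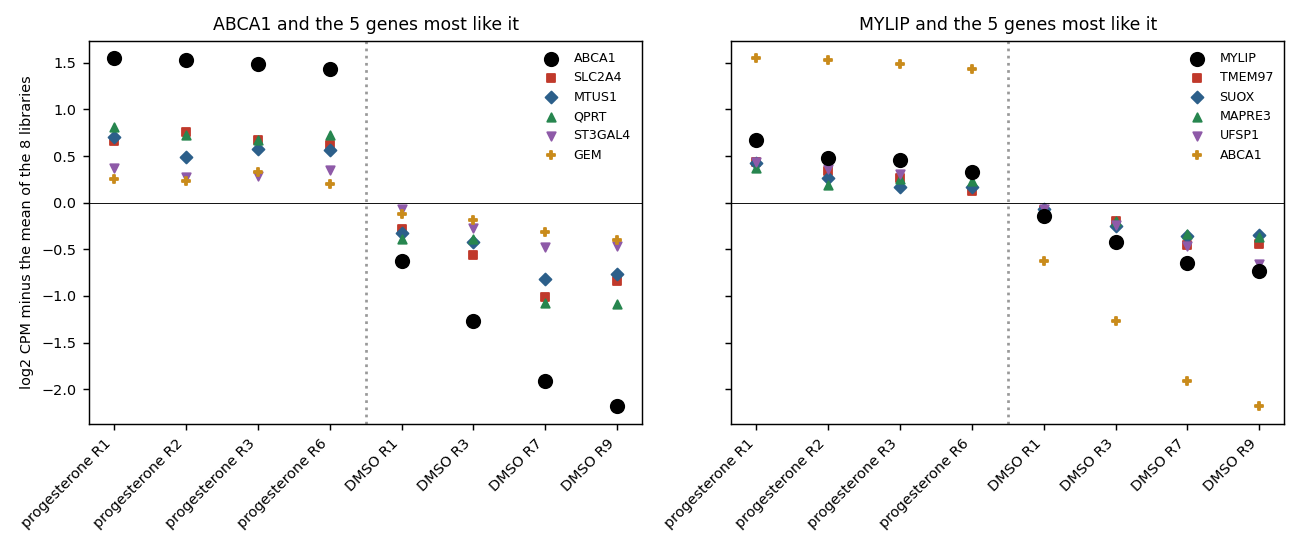
Log2 CPM minus the mean of the 8 libraries for ABCA1 (left) and MYLIP (right), each with the 5 genes of highest Pearson correlation, progesterone libraries left of the dotted line and DMSO libraries right of it. Every gene shown is above its mean in all progesterone libraries and below it in all DMSO libraries, with correlations of 0.987 to 0.994.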

How the data were processed

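The authors' deposited values were taken to be estimated counts by gene, since column totals differ and lie within 0.1 of whole numbers. The table's name gives length normalization, whose method is not given in the sources here. Salmon 1.4.0, bcl2fastq and the build ARS-UCD1.2 appear, with no role, in the submitters' processing notes, and per the labels' protocols libraries came from a stranded mRNA kit. Levels are not compared between genes. Columns name the group and not the sample, so libraries carry no pairing.

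The deposited estimated counts were rounded, kept by edgeR's filterByExpr (13557 genes), scaled by TMM and tested with edgeR 4.0.16's quasi-likelihood test (robust, two-sided, group as the only term, R 4.3.3), with Benjamini-Hochberg adjustment over all genes. The fit was also run on simulated counts. In these DMSO R7 and R9 did not stand apart, so that run does not cover this feature of the libraries. Standard errors are the log2 fold change divided by the square root of F. Log2 CPM used a prior count of 2. Libraries of a group differed by more than counting noise (chi-square per degree of freedom of 14.2 or more), so none was taken as the same library deposited again.

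The members, lists, tests and alternatives were chosen with earlier results of these data known. Beside the members and the cell type markers, genes were named as the retinoid X receptors, MYLIP substrates, up to 4 passing genes per list and the 5 most like ABCA1 and MYLIP. Exceptions are stated. Symbols were matched through the table and RefSeq (ARS-UCD2.0); APOC1, CETP and STARD4 are not analysed here, and some genes counted in the lists are not reported by name. Alternatives used DESeq2 1.42.0 and limma voom 3.58.1.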

Additional observations from a re-analysis of the deposited data

How the results depend on the processing

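ABCA1 passed under all 21 alternatives, with log2 fold changes from 2.42 to 3.24, and MYLIP failed under 2, the threshold of 0.01 and without progesterone R1. LPCAT3 failed under 7, the threshold of 0.01 and the single-library omissions given above. Over the 9 tested members, 172 of the values under alternatives kept direction and call. The 359 genes that passed became 1830 with DESeq2, 27 at the threshold of 0.01, 162 without DMSO R7 and R9, and 42 to 1782 with single libraries left out, the highest without DMSO R1. The 11 genes of the sterol lists became 23 with DESeq2, 1 at 0.01, and 1 to 19 with single libraries left out. Not all of these rose. The number that rose was 19 of 23 with DESeq2, 15 of 19 without DMSO R1 and 13 of 17 without DMSO R3. With the replicate block described below it was 38 of 45. The members that passed numbered 1 at 0.01 and 1 to 3 with single libraries left out. APOE, not called, turned to 0.036 without R7 and R9, 0.023 with a term for them and 0.10 with the replicate block, and SOAT1 to -0.0044 with that term and -0.14 with the block. The cause was not tested. Column numbers R1 and R3 occur in both groups. Deviations from the group means correlated at 0.226 and 0.210 between same-numbered libraries. Libraries of different numbers were not compared in this way, and the DMSO means include R7 and R9. These 2 pairs, which the labels do not tie, therefore do not show a pairing. With the number as a replicate block 2531 of 13557 genes, 45 genes of the lists and 6 members passed. The members added by the block were NR1H2, NPC1 and NPC2. That fit takes the change from the libraries numbered R1 and R3 only, since every other number occurs in a single library. With Spearman in place of Pearson, 1 of the 10 genes most like ABCA1 or MYLIP stayed among the 5 highest. The planned promoter search was not run. Counts of 12 in all DMSO libraries limit ABCG1.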
